A study of Mus musculus with 30 samples.

Results

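The mRNA levels of 29 genes of cholesterol and fatty acid synthesis and of its control were followed in mouse forelimb buds after inhibition of WNT signaling. The genes were chosen by name from the pathway, with earlier results of these data known and without a threshold on a measured value, and all 29 were found among the 50833 genes of the count table, of which 20569 were protein-coding. They fell into 16 enzymes of sterol synthesis, 6 enzymes of fatty acid synthesis, and 7 genes of sterol sensing and transport.

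Forelimb buds were taken from wild-type embryos (WT Swiss Albino) whose mothers received an intraperitoneal injection at stage E10.5. The treated arm received Wnt-C59 (C59), an inhibitor of Porcupine, dissolved in DMSO and diluted in buffered saline with methylcellulose, Tween and DMSO. According to the study's methods the control arm received DMSO in buffered saline, at another DMSO concentration and without mention of the other additives. The vehicles thus differed, and their part in the differences between arms was not tested. Dissection followed 1, 6, 12, 18 or 24 h later, which gave 10 groups of 3 libraries and 30 libraries in all. According to the study's methods each library came from the forelimb buds of a single embryo, and embryos of both sexes were used. The inhibitor was given to the whole animal, and whole buds were sequenced, so the values are averages over mesenchyme, ectoderm, vessels, blood and muscle precursors. In such bulk samples fewer cells of a type and less RNA per cell cannot be told apart.

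Cells make cholesterol from acetyl-CoA through the mevalonate pathway, which ends in farnesyl units, and through the steps from squalene over lanosterol to cholesterol. The transcription factors encoded by *Srebf2* and *Srebf1* switch on the sterol and the fatty acid enzymes, respectively, with considerable overlap. SCAP carries them to the Golgi for activation, and the INSIG proteins hold them back in the endoplasmic reticulum when sterols are plentiful. Both products matter in a limb bud: cholesterol is attached to Hedgehog ligands, and Porcupine attaches palmitoleate, a product of stearoyl-CoA desaturases, to WNT ligands.

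The libraries held 18188636 to 38974885 counts, and the 29 genes together took 0.340% to 0.528% of them. Their counts in a library ran from 244 (*Insig2*) to 53115 (*Scd2*), and at the low end counting error was of the order of the spread between libraries. Forelimb mesenchyme markers (*Prrx1*, *Prrx2*, *Tbx5*, *Twist1*, *Hoxa9*, *Hoxd9*) summed to 1214 to 1836 CPM (counts scaled to library size) in every library, against 9.83 to 23.7 CPM for the hindlimb genes *Pitx1* and *Tbx4*. *Axin2*, a direct WNT target and the check of the drug, was lower in C59 buds at 1 h (log2 fold change -0.19 ± 0.043 (SE), edgeR adjusted p = 0.0282), 6 h (-1.97 ± 0.063 (SE), edgeR adjusted p = 7.55e-11) and 12 h (-1.45 ± 0.058 (SE), edgeR adjusted p = 1.4e-07). At 18 h its C59 values of 105, 89.1 and 98.2 CPM stood beside the DMSO values of 111, 109 and 110.3 CPM (log2 fold change -0.16 ± 0.092 (SE), edgeR adjusted p = 0.333).

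In DMSO buds all transcripts of the pathway were counted in every library, and their levels per transcript length spanned a wide range. The highest mean over the 15 DMSO libraries was that of *Scd2*, which encodes a stearoyl-CoA desaturase, at 215.6 FPKM (a level scaled to transcript length and library size, which can be compared between genes). It was followed by *Fdps* at 90.6, *Acat2* at 85.1, *Hmgcs1* at 81.1 and *Acly* at 78.8 FPKM. The lowest were *Abca1*, a cholesterol exporter, at 2.40 FPKM and *Insig2* at 5.29 FPKM. Among the sterol enzymes alone *Hsd17b7* was lowest at 7.33 FPKM.

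The genes that were called were higher in C59 buds at 1 h, mostly lower at 6 h, lower most often at 12 h, and fewer again at 18 and 24 h. A gene was called changed when its Benjamini-Hochberg adjusted p, over all protein-coding autosomal genes tested at that time, was below 0.05 in edgeR's quasi-likelihood test on 3 C59 and 3 DMSO libraries. At 1 h 6 of the 29 genes were called, all higher in C59, while 1.14% of all genes tested were called higher and 1.61% lower. At 6 h 13 were lower and 2 higher, beside 11.4% lower and 8.2% higher among all genes. At 12 h 26 were lower and 1 was higher, beside 25.5% lower and 22% higher among all genes. At 18 h 13 were lower and 1 was higher, beside 3.62% and 3.46%. At 24 h 10 were lower and none was higher, beside 3.56% and 2.88%.

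Under the stricter rule used in the study, which also asks for a log2 fold change beyond 1, 8 of the 29 were called at 12 h and 3 at 18 h. Over all genes tested, and in order of time, that rule called 0.283%, 1.17%, 4.95%, 1.29% and 0.819%. The 8 genes at 12 h were *Idi1*, *Fdps*, *Sqle*, *Lss*, *Msmo1*, *Scd1*, *Insig1* and *Abca1*, and those at 18 h were *Idi1*, *Msmo1* and *Scd1*. None of the 29 passed it at 1, 6 or 24 h.

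**Figure D1:**
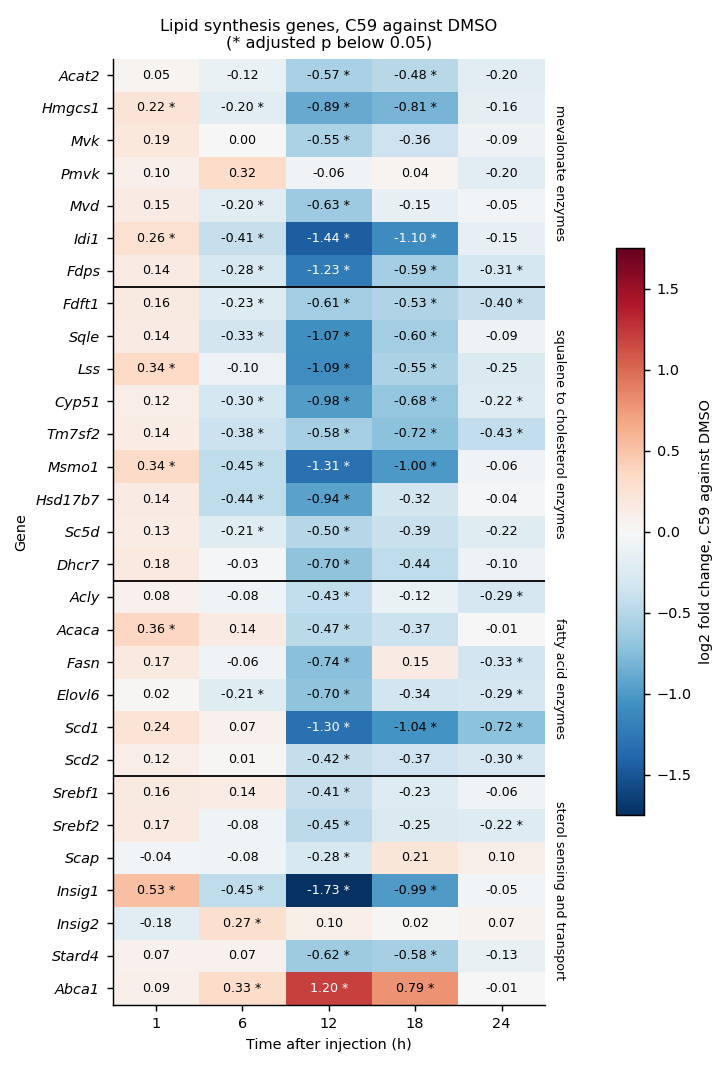
Heat map of the log2 fold change of C59 against DMSO for the 29 genes (rows, in pathway order) at 1, 6, 12, 18 and 24 h (columns), each from 3 against 3 libraries; an asterisk marks an adjusted p below 0.05. Nearly the whole 12 h column is blue, with Insig1 lowest at -1.73, and Abca1 is the gene that stands out in red, at 1.20.

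Both branches had their lowest median at 12 h, and they are set side by side here without a test of the difference between branches. The median log2 fold change of the 16 sterol enzymes was 0.14, -0.22, -0.80, -0.54 and -0.18 from the first to the last time. For the 6 fatty acid enzymes it was 0.15, -0.02, -0.59, -0.35 and -0.29 at the same times, close to 0 at 6 h. The medians over all genes tested lay between 0.00 and 0.02 throughout.

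Summed over the 16 sterol enzymes, expression in C59 buds was 440 ± 8.02 FPKM (SD, n = 3) at 6 h against 504 ± 25.3 FPKM in DMSO buds, and 326 ± 13.0 against 557 ± 35.3 FPKM at 12 h. The fatty acid sum was 379.9 ± 8.84 against 381 ± 12.2 FPKM at 6 h and 304 ± 9.36 against 410.5 ± 24.9 FPKM at 12 h. Most of this sum was *Scd2*, with 209.9 FPKM in DMSO at 6 h and 176.4 FPKM in C59 at 12 h. *Scd2* had the smallest change of the 6 enzymes at 12 h (log2 fold change -0.42), so the sum mainly follows that gene. At 24 h the sterol sum was 472 ± 17.2 FPKM against 532 ± 15.1 FPKM, whereas the fatty acid sum was 318 ± 8.82 FPKM against 388 ± 2.19 FPKM. *Axin2* had its largest deficit at 6 h and was not called at 18 h, when the sterol sum was 348 ± 20.5 FPKM against 509 ± 25.9 FPKM. The C59 effect on *Axin2* shrank from 6 h to 12 h (change in log2 fold change 0.51 ± 0.087 (SE), edgeR adjusted p = 0.000741). In that interval the C59 effect moved downward for 24 of the 29 lipid genes, while it changed in either direction for 18.1% of all genes tested.

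**Figure D2:**
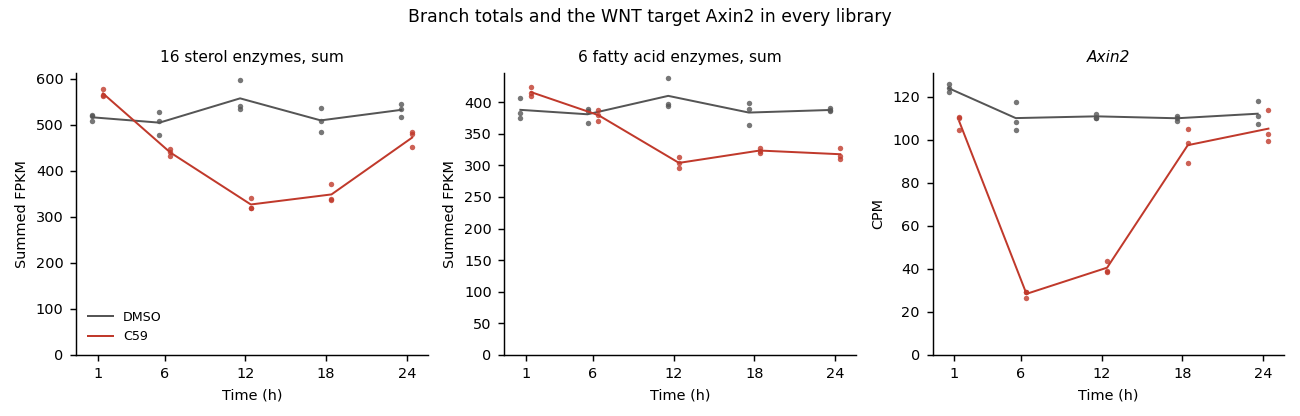
Summed FPKM of the 16 sterol enzymes (left) and of the 6 fatty acid enzymes (middle), and CPM of Axin2 (right), against time after injection in hours; each point is a library and the lines join the means of 3 DMSO (grey) or 3 C59 (red) libraries. Axin2 is lowest at 6 h, whereas both lipid sums are lowest at 12 h, at 326 and 304 FPKM; at 24 h the sterol sum is at 472 and the fatty acid sum at 318 FPKM.

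Promoter sequences were looked up because so many of these genes moved together. RefSeq promoters (GRCm38.p6) were found for 23 of the 29 genes, and the 250 bases before each annotated start were searched on both strands for CCAAT, the box bound by NF-Y, a partner of the SREBP factors, for TCACNCCAC, a core of the sterol regulatory element, for GGGCGG, the core of the GC box, and for CACGTG, an E-box. CCAAT occurred in 17 of the 23 genes, against 37.5% of 27025 genes with a promoter in the table. TCACNCCAC occurred in 1 of the 23, *Hmgcs1*, against 1.22% of all genes. GGGCGG occurred in 19 of the 23, against 35.4% of all genes, and CACGTG in 6 of the 23, against 6.86%. The genes of the table include those not expressed in limb buds. The promoters below belong to 3 sterol-regulated genes with large decreases at 12 h, to *Fasn* of the fatty acid branch, and to *Abca1*, which moved the opposite way. Capitals mark CCAAT and TCACNCCAC in either orientation, and each sequence runs 5′ to 3′ on the gene's strand and ends at the base before the start site. The genes not in the table were *Fdps*, *Fdft1*, *Sqle*, *Scd1*, *Scd2* and *Stard4*.
*Hmgcs1*, chr13:119690101-119690350 (+): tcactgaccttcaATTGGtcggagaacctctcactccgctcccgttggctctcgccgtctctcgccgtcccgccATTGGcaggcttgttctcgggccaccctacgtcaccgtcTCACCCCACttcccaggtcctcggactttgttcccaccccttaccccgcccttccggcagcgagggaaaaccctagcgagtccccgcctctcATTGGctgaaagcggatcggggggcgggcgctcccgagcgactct
*Idi1*, chr13:8885356-8885605 (+): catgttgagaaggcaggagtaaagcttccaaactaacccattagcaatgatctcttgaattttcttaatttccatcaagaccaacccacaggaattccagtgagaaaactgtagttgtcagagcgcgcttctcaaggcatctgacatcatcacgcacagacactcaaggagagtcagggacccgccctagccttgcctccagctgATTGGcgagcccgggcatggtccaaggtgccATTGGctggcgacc
*Insig1*, chr5:28071162-28071411 (+): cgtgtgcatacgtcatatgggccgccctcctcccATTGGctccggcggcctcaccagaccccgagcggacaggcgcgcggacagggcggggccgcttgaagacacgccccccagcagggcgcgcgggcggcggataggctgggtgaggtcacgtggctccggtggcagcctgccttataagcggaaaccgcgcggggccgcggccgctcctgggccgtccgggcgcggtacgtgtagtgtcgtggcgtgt
*Fasn*, chr11:120824548-120824797 (-): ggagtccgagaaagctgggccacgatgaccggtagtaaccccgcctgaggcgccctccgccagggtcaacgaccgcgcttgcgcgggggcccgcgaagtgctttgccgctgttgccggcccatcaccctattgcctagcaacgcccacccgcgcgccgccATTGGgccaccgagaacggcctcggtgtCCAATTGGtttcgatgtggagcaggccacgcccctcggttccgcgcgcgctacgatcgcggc
*Abca1*, chr4:53159896-53160145 (-): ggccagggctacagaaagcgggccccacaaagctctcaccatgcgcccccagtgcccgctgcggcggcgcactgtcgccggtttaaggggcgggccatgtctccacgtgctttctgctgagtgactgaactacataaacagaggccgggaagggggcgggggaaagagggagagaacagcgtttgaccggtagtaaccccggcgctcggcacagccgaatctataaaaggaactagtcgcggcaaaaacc
In these windows *Hmgcs1* held 3 CCAAT boxes and its TCACNCCAC match began 137 bases before the start. *Idi1* held 2 boxes within the last 45 bases and *Insig1* held 1, which began 216 bases upstream. *Fasn* held 3, of which the last pair shared bases on opposite strands, and *Abca1* held none. Among the genes not printed, *Acat2*, *Acly*, *Acaca*, *Elovl6* and *Scap* also held none, and all were called lower at 12 h. *Pmvk* and *Insig2* had the box in a promoter and were not called at 12 h. A match is a stretch of letters and was not tested as a binding site.

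The mevalonate pathway opens the sterol branch, and 6 of its 7 enzymes were lower in C59 at 12 h, beside 25.5% of all genes tested. *Hmgcs1*, which condenses acetoacetyl-CoA and acetyl-CoA to HMG-CoA, had 212, 208 and 218 CPM in the 3 DMSO libraries at 1 h and 241, 252 and 253 CPM in the C59 libraries. All C59 values lay above all DMSO values there, an increase of 16.8% (log2 fold change 0.22 ± 0.039 (SE), edgeR adjusted p = 0.00566). At 6 h the order had turned, with 218, 220.1 and 229.8 CPM in DMSO and 190.1, 193 and 199.6 CPM in C59 (log2 fold change -0.20 ± 0.044 (SE), edgeR adjusted p = 0.00641). The 12 h libraries held 236, 268 and 232 CPM against 126, 136 and 136 CPM, so *Hmgcs1* fell by 45.9% (log2 fold change -0.89 ± 0.058 (SE), edgeR adjusted p = 1.62e-06). It stayed low at 18 h, when 222, 217 and 218 CPM in DMSO faced 131, 136 and 103 CPM in C59. By 24 h the values were 210.2, 212 and 221 CPM and 172, 203 and 197 CPM, still without overlap but past no threshold (log2 fold change -0.16 ± 0.064 (SE), edgeR adjusted p = 0.156).

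*Idi1* interconverts the activated isoprene units and had the largest decrease among the enzymes. Its DMSO libraries held 37.5, 37.2 and 43.1 CPM at 1 h and its C59 libraries 46.4, 46.5 and 48.5 CPM, a small increase (log2 fold change 0.26 ± 0.066 (SE), edgeR adjusted p = 0.0477). At 6 h the C59 libraries lay close together at 28.2, 27.9 and 28.6 CPM, below the DMSO values of 38.2, 35.4 and 38.3 CPM. At 12 h they were down to 13.3, 14.1 and 16.4 CPM against 35.3, 46.6 and 37.5 CPM. *Idi1* thus fell by 63.2% (log2 fold change -1.44 ± 0.11 (SE), edgeR adjusted p = 4.69e-06), and the highest of the DMSO values was in the second library, which was also the highest for most genes shown here. At 18 h *Idi1* stood at 18.1, 19.9 and 13.7 CPM in C59 and 36.5, 39.3 and 36.6 CPM in DMSO. The groups overlapped at 24 h, with 27.4, 36.8 and 33.6 CPM in C59 and 34.2, 39.0 and 35.3 CPM in DMSO.

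*Fdps* makes farnesyl pyrophosphate, the branch point to sterols and to prenyl groups. At 1 h it had 161, 162 and 159 CPM in DMSO and 174, 176 and 182 CPM in C59, which passed no threshold (edgeR adjusted p = 0.0729). At 6 h the DMSO libraries held 146, 134 and 149 CPM and the C59 libraries 118, 119 and 117 CPM, so that *Fdps* fell by 17.7%. At 12 h *Fdps* had 168, 188 and 170.2 CPM against 73.9, 71.2 and 79.8 CPM and fell by 57.3% (log2 fold change -1.23 ± 0.058 (SE), edgeR adjusted p = 3.71e-07). Unlike *Hmgcs1* and *Idi1* it was still called at the last time, with 138, 151 and 147 CPM in DMSO and 125, 115 and 109.8 CPM in C59 (log2 fold change -0.31 ± 0.066 (SE), edgeR adjusted p = 0.0179). Between them, at 18 h, the values were 139.8, 137 and 131 CPM and 82.7, 83.4 and 101 CPM.

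The remaining mevalonate genes had smaller log2 fold changes. *Acat2*, *Mvk* and *Mvd* had log2 fold changes of -0.57, -0.55 and -0.63 at 12 h, all 3 called, and only *Acat2* among them was called again at 18 h (-0.48). *Pmvk*, which encodes phosphomevalonate kinase, was the exception among the sterol enzymes. Its log2 fold change was 0.32 at 6 h (edgeR adjusted p = 0.0517) and -0.06 at 12 h (edgeR adjusted p = 0.482), and it was called at no time.

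All 9 enzymes from squalene to cholesterol were lower in C59 at 12 h, and 7 of them already at 6 h, beside 25.5% and 11.4% of all genes tested. *Sqle*, the squalene epoxidase, had 156, 146 and 158 CPM in DMSO and 166, 162 and 178 CPM in C59 at 1 h, a difference that was not called (edgeR adjusted p = 0.142). At 6 h it had 168, 161 and 161 CPM against 133, 127 and 131 CPM, with every C59 library below every DMSO library (log2 fold change -0.33 ± 0.045 (SE), edgeR adjusted p = 0.000199). The gap widened at 12 h to 167, 190.5 and 167 CPM against 77.3, 86.7 and 86.3 CPM, so that *Sqle* fell by 52.3% (log2 fold change -1.07 ± 0.064 (SE), edgeR adjusted p = 1e-06). It narrowed at 18 h to 159, 167 and 161 CPM against 108, 109 and 98.3 CPM. At 24 h *Sqle* had 161, 176 and 166 CPM and 159, 155 and 155 CPM, with a log2 fold change of -0.09 (edgeR adjusted p = 0.357).

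*Msmo1*, which removes methyl groups from sterol intermediates, had the largest decrease of this stretch. It began above the controls, with 84.6, 89.0 and 89.6 CPM in C59 and 68.2, 65.9 and 74.0 CPM in DMSO at 1 h (log2 fold change 0.34 ± 0.053 (SE), edgeR adjusted p = 0.00308). At 6 h it was at 50.6, 48.5 and 50.3 CPM in C59 and 71.2, 62.7 and 69.6 CPM in DMSO. At 12 h 30.4, 28.8 and 32.0 CPM in C59 compared with 68.4, 83.2 and 75.1 CPM in DMSO (log2 fold change -1.31 ± 0.077 (SE), edgeR adjusted p = 9.39e-07). No C59 library of 12 h reached the level of the lowest DMSO library. C59 libraries at 18 h spread more widely, at 40.3, 38.1 and 25.6 CPM, below the DMSO values of 72.7, 69.9 and 68.4 CPM. At 24 h the C59 values of 56.5, 69.1 and 63.1 CPM spanned the DMSO values of 64.9, 67.4 and 65.0 CPM.

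*Lss* closes the rings of squalene epoxide to lanosterol, the first sterol. It too was higher at 1 h, with 59.5, 54.5 and 58.9 CPM in C59 and 43.0, 47.7 and 45.8 CPM in DMSO (log2 fold change 0.34 ± 0.06 (SE), edgeR adjusted p = 0.00566). Unlike its neighbours it was not called at 6 h, when 35.6, 38.4 and 38.4 CPM overlapped with 41.1, 40.1 and 38.3 CPM. At 12 h it had 23.3, 23.9 and 24.6 CPM in C59 and 49.1, 56.3 and 47.9 CPM in DMSO, so that *Lss* fell by 53.1% (log2 fold change -1.09 ± 0.072 (SE), edgeR adjusted p = 1.68e-06). The 18 h values were 28.2, 27.7 and 35.0 CPM and 47.6, 43.9 and 43.7 CPM. Those at 24 h were 38.7, 36.3 and 35.4 CPM and 42.0, 46.9 and 42.8 CPM (edgeR adjusted p = 0.0704).

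Of the other sterol enzymes, *Cyp51*, the lanosterol demethylase, and *Hsd17b7*, a sterol ketoreductase, fell by 49.3% and 47.8% at 12 h. *Dhcr7*, which catalyses the last step to cholesterol in one of the routes, had -0.03 at 6 h and was called at 12 h only, at -0.70. *Tm7sf2*, a sterol reductase, and *Fdft1*, the squalene synthase, were called at 6, 12, 18 and 24 h. For *Tm7sf2* the log2 fold changes at those times were -0.38, -0.58, -0.72 and -0.43. *Fdft1* followed with -0.23, -0.61, -0.53 and -0.40. *Sc5d* had -0.21 and -0.50 at 6 and 12 h, both called.

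A pair of sterol enzymes encoded on chromosome X was measured in FPKM only and was not tested. *Nsdhl* had 17.2, 20.0 and 18.2 FPKM in DMSO and 9.82, 9.03 and 10.9 FPKM in C59 at 12 h, groups that did not overlap. *Ebp* had 4.95, 6.30 and 5.36 FPKM in DMSO and 5.62, 6.02 and 6.08 FPKM in C59 at the same time, groups that did.

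**Figure D3:**
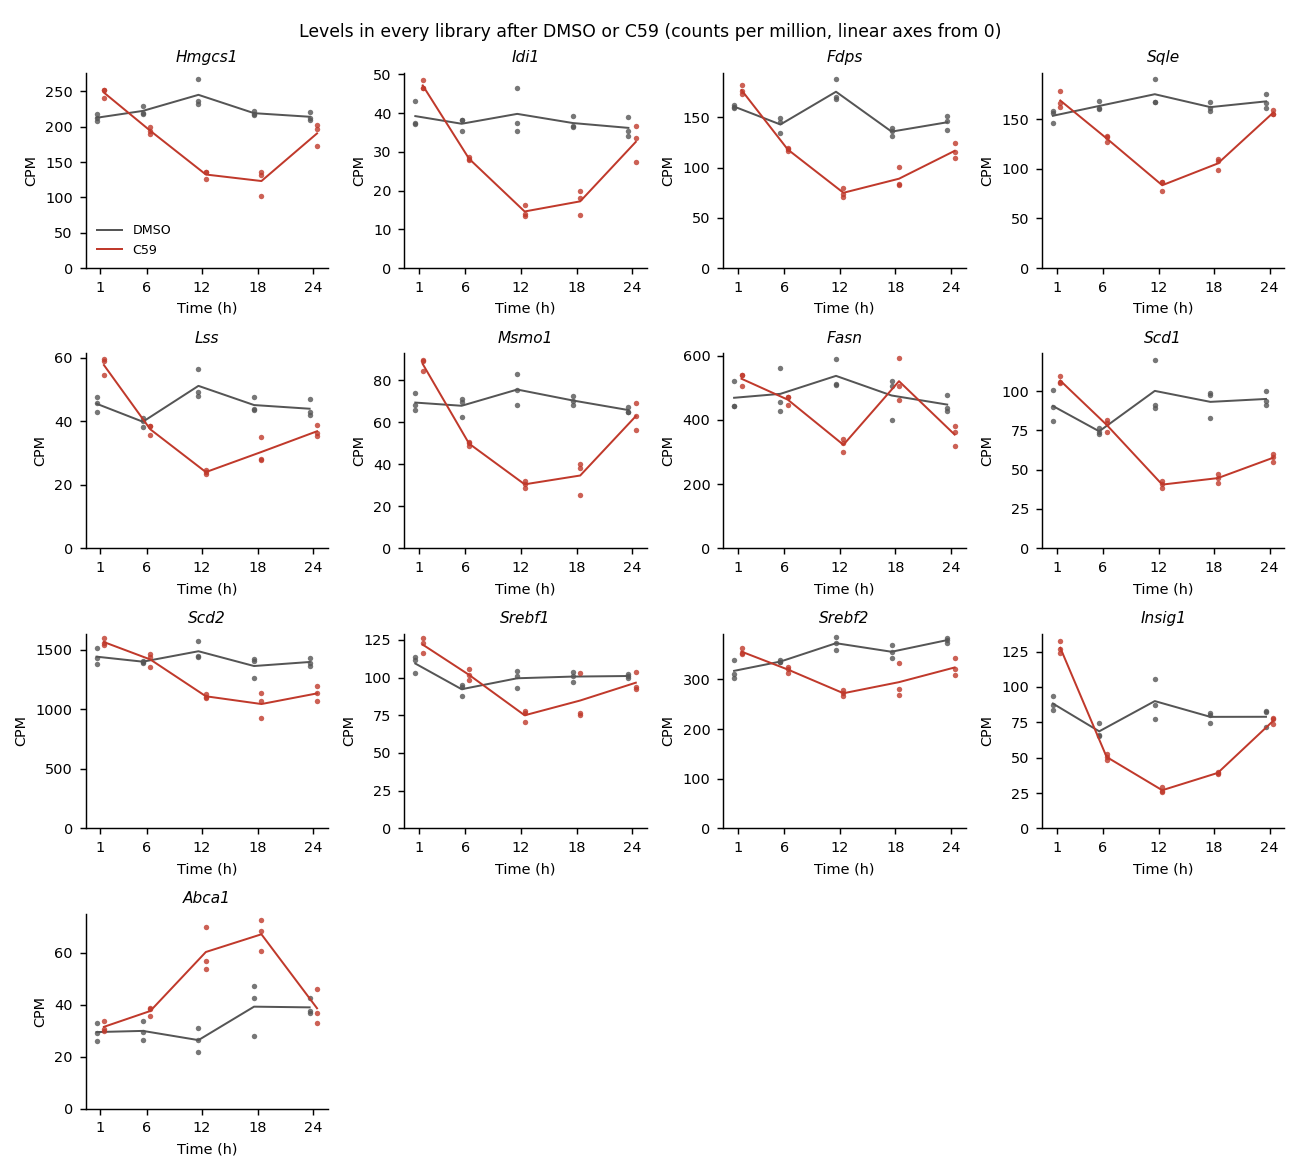
Level in CPM (linear axes from 0) of 13 genes against time after injection in hours; each point is a library, and the lines join the means of 3 DMSO (grey) or 3 C59 (red) libraries. The sterol genes and Insig1 start above the controls at 1 h, lie below them at 6 h and are lowest at 12 h or 18 h, Scd1 stays below to 24 h, and Abca1 runs the opposite way with 54.0 to 70.1 CPM in C59 at 12 h.

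In the fatty acid branch all 6 enzymes were lower in C59 at 12 h, beside 25.5% of all genes tested. At 6 h 1 of 6 (*Elovl6*, -0.21) was lower, beside 11.4%, and at 24 h 5 of 6 were lower, beside 3.56%. The count at 24 h became 1 without the first DMSO library of that time. *Scd1*, a stearoyl-CoA desaturase that makes monounsaturated fatty acids, had the largest change. Its values were 81.2, 89.7 and 101 CPM in DMSO and 106, 105 and 109 CPM in C59 at 1 h (edgeR adjusted p = 0.0647), and 72.8, 76.4 and 74.3 CPM and 81.9, 79.8 and 74.1 CPM at 6 h. The C59 group was thus not below the controls at 6 h (log2 fold change 0.07, edgeR adjusted p = 0.371). At 12 h 38.1, 40.9 and 42.6 CPM in C59 lay far under the 91.4, 120.0 and 89.2 CPM of DMSO, so that *Scd1* fell by 59.5% (log2 fold change -1.30 ± 0.10 (SE), edgeR adjusted p = 4.46e-06). The C59 libraries at 18 h held 47.2, 45.0 and 41.8 CPM against 83.0, 99.1 and 97.6 CPM. At 24 h they held 60.0, 55.1 and 58.0 CPM against 91.3, 100.1 and 93.8 CPM, and the log2 fold change of -0.72 ± 0.066 (SE), edgeR adjusted p = 8.73e-05 was the largest of the 29 genes at that time.

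*Scd2*, the desaturase with the higher level in these buds, changed less in proportion. At 1 h it had 1381, 1432 and 1509.7 CPM in DMSO and 1554, 1601 and 1535 CPM in C59, and at 6 h 1391, 1408 and 1398 CPM and 1437, 1352 and 1464 CPM. Neither difference was called. At 12 h the DMSO libraries held 1439, 1570.5 and 1451 CPM and the C59 libraries 1097, 1105 and 1124 CPM, so that *Scd2* fell by 25.4% (log2 fold change -0.42 ± 0.039 (SE), edgeR adjusted p = 1.19e-05). The groups stayed apart at 18 h, with 1258, 1421 and 1408 CPM and 1132, 1072 and 926 CPM (edgeR adjusted p = 0.0673). At 24 h 1367, 1433 and 1389 CPM compared with 1070.2, 1191 and 1137 CPM (log2 fold change -0.30 ± 0.061 (SE), edgeR adjusted p = 0.0148). Per transcript length its mean went from 224 ± 12.5 FPKM (SD, n = 3) in DMSO to 176 ± 3.35 FPKM in C59 at 12 h, so that *Scd2* remained the most abundant of these transcripts in C59 buds.

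*Fasn*, the fatty acid synthase, was lower in C59 at 12 h, was not called at 18 h, and was lower again at 24 h. It had 442, 442 and 522 CPM in DMSO and 539, 539.8 and 504 CPM in C59 at 1 h. At 6 h it had 454, 559.8 and 428 CPM and 471, 446 and 471 CPM. The groups overlapped at both times. At 12 h 512, 590.2 and 508 CPM in DMSO faced 298, 340.5 and 327 CPM in C59 (log2 fold change -0.74 ± 0.064 (SE), edgeR adjusted p = 8.97e-06). At 18 h the values were 399.9, 521 and 506 CPM and 506, 462 and 592 CPM (log2 fold change 0.15 ± 0.13 (SE), edgeR adjusted p = 0.528). At 24 h *Fasn* had 478, 428 and 435 CPM and 380.3, 319 and 362 CPM, so that *Fasn* fell by 20.5% (log2 fold change -0.33 ± 0.074 (SE), edgeR adjusted p = 0.0215). The change of its C59 effect from 12 h to 18 h was itself called, at 0.89 ± 0.16 (SE), edgeR adjusted p = 0.0036.

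*Acaca*, which makes malonyl-CoA, was the fatty acid gene called at 1 h, at a log2 fold change of 0.36 ± 0.047 (SE), edgeR adjusted p = 0.000745, and it was lower at 12 h (-0.47). *Acly*, which supplies cytosolic acetyl-CoA to both branches, was called at 12 h (-0.43) and 24 h (-0.29). *Elovl6*, which elongates palmitate, was called at 12 h (-0.70) and 24 h (-0.29) besides 6 h. *Acaca* was the fatty acid gene not called at 24 h, with a log2 fold change of -0.01.

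Among the genes of sterol sensing and transport, *Insig1* had the largest change of all 29 genes. It encodes the retention protein and is itself switched on by SREBP factors, and it had both the largest increase at 1 h and the largest decrease at 12 h. At 1 h its C59 libraries held 124, 127 and 132 CPM, all above the DMSO values of 83.5, 87.3 and 93.9 CPM. The increase was 44.5% (log2 fold change 0.53 ± 0.05 (SE), edgeR adjusted p = 5.13e-05). At 6 h the C59 values were 50.5, 52.3 and 48.7 CPM and the DMSO values 65.4, 65.7 and 74.7 CPM. At 12 h 25.4, 26.2 and 29.2 CPM in C59 compared with 77.1, 106 and 86.9 CPM in DMSO, so that *Insig1* fell by 70.0% (log2 fold change -1.73 ± 0.11 (SE), edgeR adjusted p = 1.2e-06). Between 1 h and 12 h the mean in C59 buds thus went from 128 to 27.0 CPM, whereas the DMSO means were 88.3 and 90.0 CPM. *Insig1* was at 38.4, 39.3 and 40.0 CPM against 80.5, 74.6 and 81.4 CPM at 18 h. At 24 h the groups overlapped, at 73.5, 77.1 and 77.8 CPM against 71.7, 82.0 and 83.0 CPM (log2 fold change -0.05, edgeR adjusted p = 0.742).

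*Abca1*, which exports cholesterol and is a target of the LXR oxysterol receptors, was the 1 gene called higher at 12 h. It had 26.1, 29.2 and 33.2 CPM in DMSO and 33.7, 30.7 and 30.1 CPM in C59 at 1 h. At 6 h it had 26.5, 33.8 and 29.5 CPM and 38.6, 38.4 and 35.9 CPM. The first pair overlapped and the second did not (log2 fold change at 6 h 0.33 ± 0.082 (SE), edgeR adjusted p = 0.0119). At 12 h the C59 libraries held 54.0, 70.1 and 57.0 CPM and the DMSO libraries 26.4, 31.1 and 21.7 CPM, an increase of 129% (log2 fold change 1.20 ± 0.13 (SE), edgeR adjusted p = 3.16e-05). At 18 h 72.6, 68.3 and 60.6 CPM compared with 27.9, 42.7 and 47.3 CPM (log2 fold change 0.79 ± 0.18 (SE), edgeR adjusted p = 0.032). All C59 libraries at 12 and 18 h lay above all 15 DMSO libraries of the series. At 24 h the groups overlapped, with 33.0, 36.7 and 46.2 CPM and 37.5, 36.9 and 42.6 CPM. The 6 h call was lost without the first C59 library (edgeR adjusted p = 0.0574), with all 30 libraries in a single edgeR fit (adjusted p = 0.169), and in limma on FPKM with a pseudocount of 1 or 0.1 (adjusted p = 0.0674 and 0.0821). The 18 h call was lost without any DMSO library and without the first or second C59 library, with edgeR adjusted p of 0.058 to 0.0952, and with the replicate number as a block (adjusted p = 0.0542).

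The genes of the factors themselves had smaller log2 fold changes at 12 h than every sterol enzyme called then. *Srebf2* had 302, 310.1 and 339 CPM in DMSO and 363, 352 and 353 CPM in C59 at 1 h, and 335, 339 and 334 CPM and 313, 321 and 326 CPM at 6 h. Neither difference was called, although the groups did not overlap. At 12 h 373, 386 and 359 CPM compared with 266, 272 and 278 CPM, so that *Srebf2* fell by 27.0% (log2 fold change -0.45 ± 0.04 (SE), edgeR adjusted p = 9.63e-06). At 18 h the third C59 library stood apart in 269, 281 and 333 CPM, against 342, 369.9 and 354 CPM in DMSO. At 24 h *Srebf2* had 379.7, 374 and 383 CPM and 344, 308 and 320.1 CPM, just inside the threshold (log2 fold change -0.22 ± 0.06 (SE), edgeR adjusted p = 0.0482). That call was lost when any of the 3 DMSO libraries or the second or the third C59 library was left out, with edgeR adjusted p of 0.0946 to 0.201.

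*Srebf1* had 103, 113 and 112 CPM in DMSO and 123, 117 and 126 CPM in C59 at 1 h. At 6 h it had 95.3, 88.0 and 93.6 CPM and 105, 102 and 98.4 CPM, so that C59 was still the higher group, as it was for *Scd1* and *Acaca*, though none of these was called. At 12 h 93.4, 101 and 105 CPM faced 76.7, 77.7 and 70.6 CPM (log2 fold change -0.41 ± 0.06 (SE), edgeR adjusted p = 0.000279). The values at 18 h were 104, 97.3 and 101 CPM and 75.3, 76.2 and 103 CPM, the third C59 library lying among the controls. At 24 h they were 99.7, 103 and 101 CPM and 104, 92.5 and 93.7 CPM, which overlapped.

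*Stard4*, a carrier of cholesterol inside the cell, was lower at 12 h (-0.62) and 18 h (-0.58). *Scap* was called at 12 h only, at a log2 fold change of -0.28. *Insig2*, unlike its paralog *Insig1*, was called once, higher at 6 h (0.27 ± 0.078 (SE), edgeR adjusted p = 0.0246), and had a log2 fold change of 0.10 at 12 h (edgeR adjusted p = 0.422). The 6 h call was lost without the first or the third DMSO library and without the first or the second C59 library, with edgeR adjusted p of 0.0575 to 0.0716. DESeq2 gave an adjusted p of 0.0508, and limma on FPKM with a pseudocount of 1 or 0.1 gave 0.0841 and 0.0803.

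The test of the difference between time points called the most genes between 6 and 12 h. From 1 h to 6 h the C59 effect changed for 15 of the 29 genes, 14 of them downward, where 13% of all genes tested changed. The 14 were 12 sterol enzymes, *Insig1* and *Srebf2*, and no fatty acid enzyme was among them. From 6 h to 12 h it changed for 25 genes, 24 downward, where 18.1% of all genes changed. These included all 6 fatty acid enzymes, 14 sterol enzymes, *Insig1*, *Srebf1*, *Srebf2* and *Stard4*, and *Abca1* upward. From 12 h to 18 h 6 genes were called, all upward and led by *Fasn* (0.89) and *Insig1* (0.75), where 8.49% of all genes changed. From 18 h to 24 h 8 genes were called, where 6.96% of all genes changed. *Idi1* (0.95), *Msmo1* (0.94) and *Insig1* (0.93) rose most in this last interval, and *Abca1* came down (-0.81). Libraries spread more in the fits that held the 18 h groups, with a biological coefficient of variation of 10.2% and 10.3%. It was 5.55% from 1 h to 6 h and 6.16% from 6 h to 12 h, so the counts are not directly comparable between intervals.

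**Figure D4:**
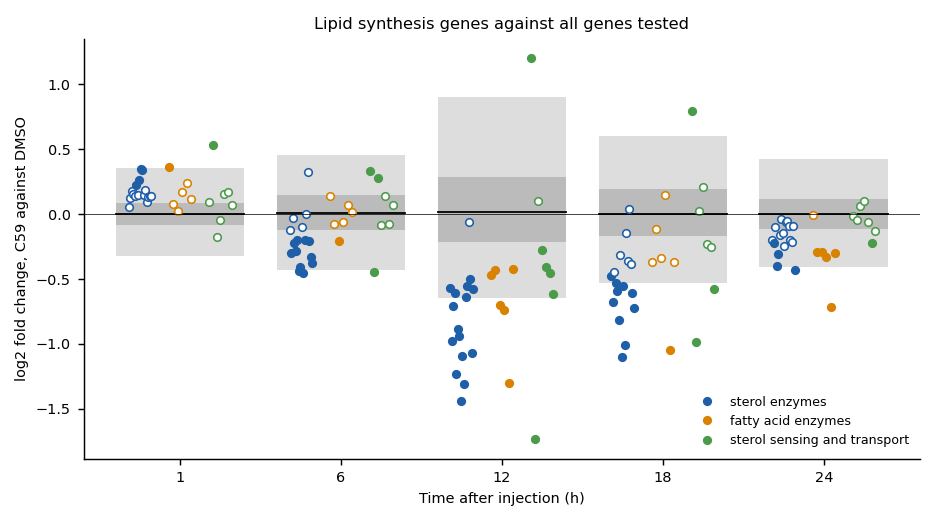
Log2 fold change of C59 against DMSO (vertical axis) at each time after injection in hours (horizontal axis) for the 29 genes, as points coloured by branch and filled where the adjusted p was below 0.05, over all genes tested, as grey bars (light, the middle 90%; dark, the middle 50%; line, the median). At 12 h the sterol enzymes reach down to -1.44 and most of the points lie below the dark bar, and at 24 h Scd1 at -0.72 is the lowest point.

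In DMSO buds the levels of the 29 genes spread less over the times than in C59 buds. In DMSO buds the ratio of the highest to the lowest of the 5 group means had a median of 1.17 over the 29 genes, beside 1.27 over all genes tested at 12 h, and was at most 1.49 (*Abca1*). In C59 buds that ratio had a median of 1.66, beside 1.46 over all genes, and reached 4.73 (*Insig1*) and 3.23 (*Idi1*). A change over the 5 times was called for 15 of the 29 genes in DMSO, where 57.3% of all genes were called, and for 27 in C59, where 71.1% of all genes were called. DMSO buds at 24 h against 1 h differed in 11 genes, 4 higher and 7 lower, beside 30.2% higher and 29.2% lower among all genes. The largest of these were *Abca1* (log2 fold change 0.40), *Srebf2* (0.26) and *Acly* (-0.22), and none passed a log2 fold change of 1, as 12% of all genes did. Set against all 15 DMSO libraries of any time, the 3 C59 libraries of 12 h lay below every one of them for 26 of the 29 genes, beside 15.4% of all genes tested, and those of 24 h for 11, beside 4.52%.

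Genes next to the pathway were counted from lists of their own. Of 11 genes of the isoprenoid branch, which turns farnesyl and geranylgeranyl units into prenyl groups, ubiquinone and dolichol, 5 were lower and none higher at 12 h, beside 25.5% lower and 22% higher among all genes. Their median log2 fold change of -0.20 lay inside the middle 50% of all genes, which ran from -0.22 to 0.28. *Rabggtb*, a subunit of Rab geranylgeranyl transferase, had 54.7, 52.6 and 55.0 CPM in DMSO and 32.5, 32.1 and 32.4 CPM in C59 (log2 fold change -0.74 ± 0.056 (SE), edgeR adjusted p = 3.36e-06). *Pdss1*, which makes the ubiquinone side chain, had a log2 fold change of -0.85. Of 16 further genes of lipid supply, 7 were lower and 4 higher at 12 h, with a median of -0.17 that also lay inside that range. The lower ones were led by *Aacs* (-1.14), which activates acetoacetate, *Tmem97*, a sterol-regulated membrane protein, and *Fads2* (-0.56), a fatty acid desaturase. *Tmem97* had 46.0, 40.5 and 41.0 CPM in DMSO and 20.5, 21.5 and 21.6 CPM in C59 at 12 h (edgeR adjusted p = 2.81e-06). *Tmem97* was lower already at 6 h (-0.61) and higher than in the controls at 24 h (0.38 ± 0.069 (SE), edgeR adjusted p = 0.00734).

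Of 6 LXR receptors and targets, 4 were higher at 12 h and none lower, with a median of 0.46, beside 22% higher among all genes. *Smpdl3a* had 4.69, 4.95 and 4.07 CPM in DMSO and 10.1, 7.78 and 8.60 CPM in C59, and *Abcg1*, another sterol exporter, 8.83, 9.74 and 9.45 CPM and 15.7, 14.8 and 15.4 CPM. *Abcg1* was higher at 6 h also (0.51), as was *Mylip* (0.22). None of the 6 was called at 18 or 24 h.

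Markers of the cell types in the buds moved with treatment at several of the same times. Forelimb mesenchyme markers summed to 1822 to 1836 CPM in DMSO and 1273 to 1394 CPM in C59 at 6 h (4 of 6 lower). At 12 h they summed to 1694 to 1793 and 1214 to 1310 CPM (3 of 6 lower, 1 higher), and at 18 h 1 of 6 was lower and at 24 h 1 of 6 higher. Muscle precursor markers summed to 75.9 to 80.3 CPM in DMSO and 97.0 to 100.5 CPM in C59 at 6 h (1 of 4 higher, 1 lower). They were then the lower group in C59, with 3 of 4 lower at 12, 18 and 24 h and 1 higher at 12 h. Their sums were 76.5 to 83.4 against 48.6 to 67.4 CPM at 12 h, 94.1 to 102 against 48.4 to 61.7 CPM at 18 h, and 101 to 118 against 77.8 to 85.3 CPM at 24 h.

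Ectoderm markers summed to 281 to 311 CPM in DMSO and 389 to 524 CPM in C59 at 12 h, with 7 of 8 markers higher. At 18 h the sums were 290.1 to 310.0 against 369 to 427 CPM (4 of 8 higher), and at 24 h 335 to 343 against 391 to 427 CPM (3 of 8 higher). Macrophage markers were the higher group in C59 at the same 3 times, with 24.0 to 28.3 against 38.3 to 41.2 CPM (4 of 5 higher), 33.5 to 37.9 against 49.1 to 53.6 CPM (3 of 5) and 40.3 to 42.8 against 46.2 to 51.1 CPM (2 of 5). Endothelial markers summed to 261 to 285 and 328 to 362 CPM at 12 h (3 of 5 higher). Nerve and crest markers summed to 7.86 to 12.9 and 14.1 to 27.2 CPM at 12 h (2 of 3 tested higher), and 2 of 3 were higher at 24 h. No marker of these lists was at 0 in any library. At 1 h 4 of 8 erythroid genes tested were higher in C59, and at 6 h 4 of 8 were lower. Summed FPKM of 4 Y-linked genes was 0 in all DMSO libraries at 6 h and 19.8 to 33.2 in the C59 libraries, and at 1 h 0.0469 to 9.03 and 21.2 to 38.2, so that every C59 library lay above every DMSO library at both times and embryo sex and treatment cannot be told apart there. The part of these differences in the changes of the lipid genes was not tested.

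Firmness differed between times. At 12 h the counts of 15 sterol enzymes, 6 fatty acid enzymes and 6 genes of sensing and transport were the same when any single library was left out. The libraries of 18 h spread more, with a biological coefficient of variation of 12.5% against 5.41% to 7.52% at the other times. The 10 sterol enzymes called at 18 h became 6 without the second or the third DMSO library or the second C59 library, and 14 without the third C59 library, which lay below the others for *Hmgcs1*, *Idi1* and *Msmo1* and above them for *Fdps*, *Lss*, *Srebf1* and *Srebf2*. The 11 sterol enzymes at 6 h became 6 without the first C59 library. At 24 h the 5 fatty acid enzymes became 1 without the first DMSO library, and 2 without the second or the third. The 4 sterol enzymes at 24 h became 2 without the first or second DMSO library, 1 without the third, and 7 without the first C59 library. At 1 h the fatty acid count of 1 became 4, and that of sensing and transport 2, without the third DMSO library.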

How the data were processed

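PolyA RNA-seq of 30 libraries from mouse forelimb buds was analysed, with 3 libraries in each of 10 groups of treatment (DMSO or C59) and time, taken from the sample labels. The deposited values were not altered before the steps given here. Read trimming by the authors used cutadapt 1.16, and alignment to mm10 used STAR 2.7.0e with a custom annotation. The deposited counts are raw counts per gene written by STAR, of autosomes only, and the strand of counting is not given in the sources used here, so reads of overlapping genes on opposite strands could not be told apart. The deposited FPKM values were computed by the authors with Cufflinks 2.2.1, in its unstranded mode and with corrections for multi-reads and sequence bias. Replicates were not pooled in either table.

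For protein-coding autosomal genes of GENCODE M21, counts were kept by filterByExpr (min.count 10, min.total.count 15), scaled by TMM and tested by the quasi-likelihood method of edgeR 4.0.16 under R 4.3.3, with two-sided tests and Benjamini-Hochberg adjustment over all genes tested. Fits at a single time took its 6 libraries and no covariate, interaction contrasts for changes of the C59 effect took 12 libraries, changes over time within a treatment 15, and DMSO at 24 h against 1 h took 6. The fit was tested on simulated data with the means and library sizes of these libraries. CPM values are counts over the TMM-scaled library size. Values in FPKM were used for levels between genes and for chromosome X, and in limma 3.58.1.

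The 29 genes, the neighbouring lists and the marker lists were chosen with earlier results of these data known. Library values are given for *Insig1*, *Sqle*, *Hmgcs1*, *Srebf1*, *Srebf2*, *Fasn*, *Scd1* and *Scd2* and for the 2 called genes with the largest change in each of 4 role lists. From the other lists at most 3 called genes per time are named. In each of 30 replicate pairs the counts differed beyond sampling noise, with a chi-square of 3.13 to 45.5 times its degrees of freedom, and no library was dropped. The highest values, 45.5 and 38.1, both came from pairs with the third C59 library of 18 h. The pair of the first and second C59 libraries of 18 h gave 4.21. Deviations of same-numbered C59 and DMSO libraries from their group means correlated at -0.133 to 0.103, so the numbers were not treated as pairs.

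Alternatives were DESeq2 1.42.0, its size factors and upper-quartile factors in edgeR, no filter, a floor of 1 CPM on the mean, the whole count table, all 30 libraries in a single fit, limma on log2 FPKM with a pseudocount of 1 or 0.1, a log2 fold change beyond 1, each library left out in turn, and a block for the replicate number. Promoters were RefSeq sequences of GRCm38.p6, the patch series of the mm10 assembly.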

Additional observations from a re-analysis of the deposited data

Results flagged for a closer look

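The C59 effect differed between neighbouring times by a test of the difference itself, the interaction contrast in edgeR, for part of the 29 genes. Over all genes tested it differed for 13%, 18.1%, 8.49% and 6.96% in the successive intervals, in order of time. From 1 h to 6 h it differed for 15 genes, with the largest change in *Insig1* (log2 fold change -0.97) and *Msmo1* (-0.79), which went from above the controls to below them. From 6 h to 12 h it differed for 25 genes, with the largest change in *Scd1* (-1.38) and *Insig1* (-1.29). From 12 h to 18 h it differed for 6 genes, led by *Fasn* (0.89) and *Insig1* (0.75). From 18 h to 24 h it differed for 8 genes, led by *Idi1* (0.95) and *Msmo1* (0.94), and this count became 14 without the third C59 library of 18 h and 5 without the second DMSO or second C59 library of 18 h, any DMSO library of 24 h, or the second C59 library of 24 h.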

How the results depend on the processing

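Of 240 recomputed counts of called genes under the settings other than leaving out a library, 194 stayed within 1.5 times the reported count, and of 174 with a library left out 137 did. No single gene called in both fits changed direction among 1450 and 870 recomputed fold changes. At 1, 6, 12, 18 and 24 h in turn, counts below are of sterol enzymes, fatty acid enzymes, or genes of sensing and transport. With a log2 fold change beyond 1, the sterol counts were 0, 0, 5, 2 and 0, the fatty acid counts 0, 0, 1, 1 and 0, and those of sensing and transport 0, 0, 2, 0 and 0. The same rule left 0, 3, 0 and 0 changes of effect in the 4 successive intervals, and 0 for DMSO at 24 h against 1 h. With all 30 libraries in a single fit, sterol enzymes gave 1 at 1 h and 7 at 6 h, fatty acid enzymes 0 at 1 h, 0 at 6 h and 4 at 18 h, sensing and transport 5 at 18 h, changes of effect 11 from 12 h to 18 h and 13 from 18 h to 24 h, change over time in DMSO 9, and DMSO at 24 h against 1 h 4. With limma on log2(FPKM + 1) sterol enzymes gave 1 at 1 h, and with log2(FPKM + 0.1) they gave 2, and both gave 0 fatty acid enzymes and 1 gene of sensing and transport at 6 h. With DESeq2 and with no filter, 2 fatty acid enzymes and 2 genes of sensing and transport were called at 1 h, and DESeq2 called 2 fatty acid enzymes at 18 h. Upper-quartile factors gave 2 fatty acid enzymes at 6 h. The call of *Srebf2* at 24 h, the 1 gene of sensing and transport there, was lost (0) with upper-quartile factors, all genes of the table, both limma fits and the replicate block. The cause of these differences was not tested. The replicate block, a pairing that the labels do not give, moved no other count by over 1.5 times, and at 12 h each C59 library correlated best with the DMSO library of its number.

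Leaving out each library in turn gave sterol enzymes 3 to 5 at 1 h, 6 to 12 at 6 h, 15 to 15 at 12 h, 6 to 14 at 18 h and 1 to 7 at 24 h. For fatty acid enzymes it gave 1 to 4, 0 to 2, 6 to 6, 1 to 2 and 1 to 5, and for sensing and transport 1 to 2, 1 to 3, 6 to 6, 1 to 5 and 0 to 1. The changes of effect ranged over 13 to 17, 24 to 25, 4 to 9 and 5 to 14, the changes over time over 11 to 17 in DMSO and 26 to 29 in C59, and DMSO at 24 h against 1 h over 6 (without the first DMSO library of 24 h) to 12, with 7 without the second DMSO library of 1 h. At its lowest count of 244 *Insig2* had a counting error of the order of the spread between libraries.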
